A study of Mus musculus with 8 samples.

Results

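Potassium and HCN channel genes were followed in the hippocampus of mice overexpressing miR-708-5p. The 47 genes were taken from a fixed list of symbols out of 40659 genes in the count table, and comprise pore-forming, modifier and auxiliary subunits of 9 channel families, without the A-type Kcnd channels and their partners. PolyA-RNA was sequenced from the hippocampus of 8 male C57BL/6JRj mice, 4 injected with the virus hpCTL and 4 with hp708. Both are recombinant adeno-associated viruses (rAAVs) that were injected into the dorsal and the ventral hippocampus at postnatal week 7 to 8. hp708 carries a miR-708-5p hairpin driven by the human synapsin promoter, which is active in neurons, and hpCTL carries a control hairpin, so no group was free of surgery, virus or hairpin. Tissue was dissected 4 weeks later, and the labels give its age as postnatal week 12 to 13. Each library came from 1 mouse and held the whole dissected tissue, with infected and non-infected cells and glia together.

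Potassium channels let potassium leave the cell and thereby set the resting potential, repolarise the action potential and limit repeated firing. Voltage-gated (Kv) channels open on depolarisation, inward rectifiers and tandem-pore channels carry current near rest, and calcium- or sodium-activated channels open after firing. HCN channels are related in structure but conduct a cation current on hyperpolarisation, which in hippocampal pyramidal cells dampens dendritic input.

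The labels of the animals conflict for the mouse behind hp708 replicate 1, which the sample labels place in hp708 and the qPCR source data place in hpCTL. It was kept in hp708. The counts of called genes in the main test, their median log2 fold change and the genes called are also given without it. Results of other tests, medians by seed match, the spread within groups and the sodium, calcium and A-type channel lists are given only with it. The total count per library was 22606824 to 28462428, and the smallest count of a channel gene in a library was 10, for Kcna3. The precursor gene Mir708 had 0 counts in each library, so the overexpression could not be checked in polyA-RNA. Markers of CA1 pyramidal neurons (534 to 661 counts scaled to the library size, CPM, summed over 5 genes) and of dentate granule cells (161 to 290 CPM) were present in each library. Choroid plexus markers ranged from 51.7 to 4365 CPM and those of oligodendrocytes from 4148 to 7847 CPM, with the highest of both in hp708 replicate 2. Hp708 replicate 2 also had the lowest CPM of the 8 libraries for 19 of the 47 channel genes (40.4%), while it was the lowest library for 16.6% of all 17252 tested genes. The 47 genes together made up 2943 CPM there and 3311 to 3599 CPM in the other libraries.

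Because miR-708-5p was the agent, matches to its seed (bases 2 to 8, in capitals in the microRNA) were located first in the longest annotated 3′UTR of each gene. The microRNA is taken from RefSeq, and the sites from GRCm39 with GENCODE gene models. The letters searched on the strand of the transcript were AGCTCCTA (8mer), AGCTCCT (7mer-m8) and GCTCCTA (7mer-A1), each site being counted in the longest class that held it. The sites shown are the only 8mers, which lie in Kcnc1 and Kcnj6. With them are the 7mer-m8 sites with most bases able to pair with the microRNA, in Kcnab2 and Kcnma1. Both sites of Kcnk3 are shown as well, a gene chosen for its values. Its hp708 replicates 2 to 4 lay below all hpCTL libraries and its replicate 1 above them. Kcnj9, Kcnc4 and Kcnab3, whose hp708 replicates 2 to 4 also lay below all hpCTL libraries, held no site. Capitals mark the seed match within a window as long as the microRNA.
miR-708-5p: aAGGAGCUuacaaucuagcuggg
Kcnc1, chr7:46080426-46080448, plus strand: tccagctgggtcagcAGCTCCTA
Kcnj6, chr16:94546478-94546500, minus strand: tcacggtgtcaaaatAGCTCCTA
Kcnab2, chr4:152475829-152475851, minus strand: cacacctcagagctaAGCTCCTg
Kcnma1, chr14:23343265-23343287, minus strand: gccaagtgaaaactgAGCTCCTt
Kcnk3, chr5:30782535-30782557, plus strand: ggcccccttttcagcAGCTCCTg
Kcnk3, chr5:30783019-30783041, plus strand: tccaggggtgacctcAGCTCCTc

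In the window of Kcnc1, 15 of 23 bases could pair with the microRNA without a gap, in those of Kcnab2 and Kcnma1 14, in those of Kcnk3 10 and 12, and in that of Kcnj6 10. Of the 47 genes, 15 (31.9%) held 22 sites, namely 2 8mers, 14 7mer-m8 and 6 7mer-A1 sites. Among the 14808 tested genes with a 3′UTR, 3927 (26.5%) held a site, and the median 3′UTR was 1865 bases long, against 2365 bases for the channel genes. The 15 genes with a site were Kcna2, Kcnab2, Kcnc1, Kcnc2, Kcnf1, Kcns2, Kcnq3, Kcnh7, Kcnma1, Kcnn1, Kcnt2, Kcnj2, Kcnj6, Kcnk3 and Hcn3. A letter match is a description and was not tested as a binding site.

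The question was whether these genes differed between hp708 and hpCTL. In the quasi-likelihood test of edgeR, fitted with 3 surrogate variables (hidden factors of variation estimated from the counts), 0 of the 47 genes passed a Benjamini-Hochberg false discovery rate (FDR) of 0.05, the lowest FDR being 0.294, while 1 of the 17252 tested genes (0.00580%) passed it. At an unadjusted p below 0.05, 4 of the 47 genes were higher in hp708, namely Kcnj6, Kcna1, Kcnh1 and Kcnv1 (8.51%, against 2.82% of all tested genes), and 2 were lower, Kcnj9 and Kcnab3 (4.26%, against 4.87%). Together these were 12.8% of the genes, where 7.70% of all tested genes had such a p in either direction. The log2 fold changes (hp708 against hpCTL) ran from -0.37 to 0.38 with a median of 0.03, 27 above and 20 below 0, where the median of all tested genes was -0.01. In 0 of the 47 genes did the 4 hp708 libraries all lie above, or all below, the hpCTL libraries, which was so for 1.51% of all tested genes. In bulk tissue, fewer cells of a type and less RNA per cell cannot be told apart, here and in all values that follow.

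The calls depended on the surrogate variables, on the test and on single libraries. Without surrogate variables 1 of the 47 genes, Kcnab3, had an unadjusted p below 0.05, where 1.81% of all genes did. The likelihood ratio test with 3 surrogate variables, which the methods of the study name, called 2 of the 47 at an FDR below 0.05, Kcnj6 (FDR 0.00561) and Kcna1 (FDR 0.00822), where it called 0.736% of all genes. Leaving out hpCTL replicates 1, 2, 3 or 4 in turn gave 7, 4, 2 or 6 genes that were higher at an unadjusted p below 0.05, where 3.54%, 2.88%, 0.900% or 2.26% of all genes were. In the same fits 6, 0, 2 or 4 genes were lower, beside 6.13%, 4.16%, 2.08% or 3.83% of all genes. For hp708 replicates 1, 2, 3 or 4 the higher genes numbered 7, 6, 5 or 3 (5.44%, 5.37%, 3.49% or 2.75% of all genes) and the lower ones 10, 5, 3 or 2 (6.72%, 6.64%, 4.53% or 5.71% of all genes). The number of called genes thus moved among all genes as well as among the channel genes. Of the 6 genes called with all libraries, 6 kept their direction and an unadjusted p below 0.05 without hpCTL replicate 1 or hp708 replicate 2, and 3 did so without hpCTL replicate 3 or hp708 replicate 4.

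**Figure D1:**
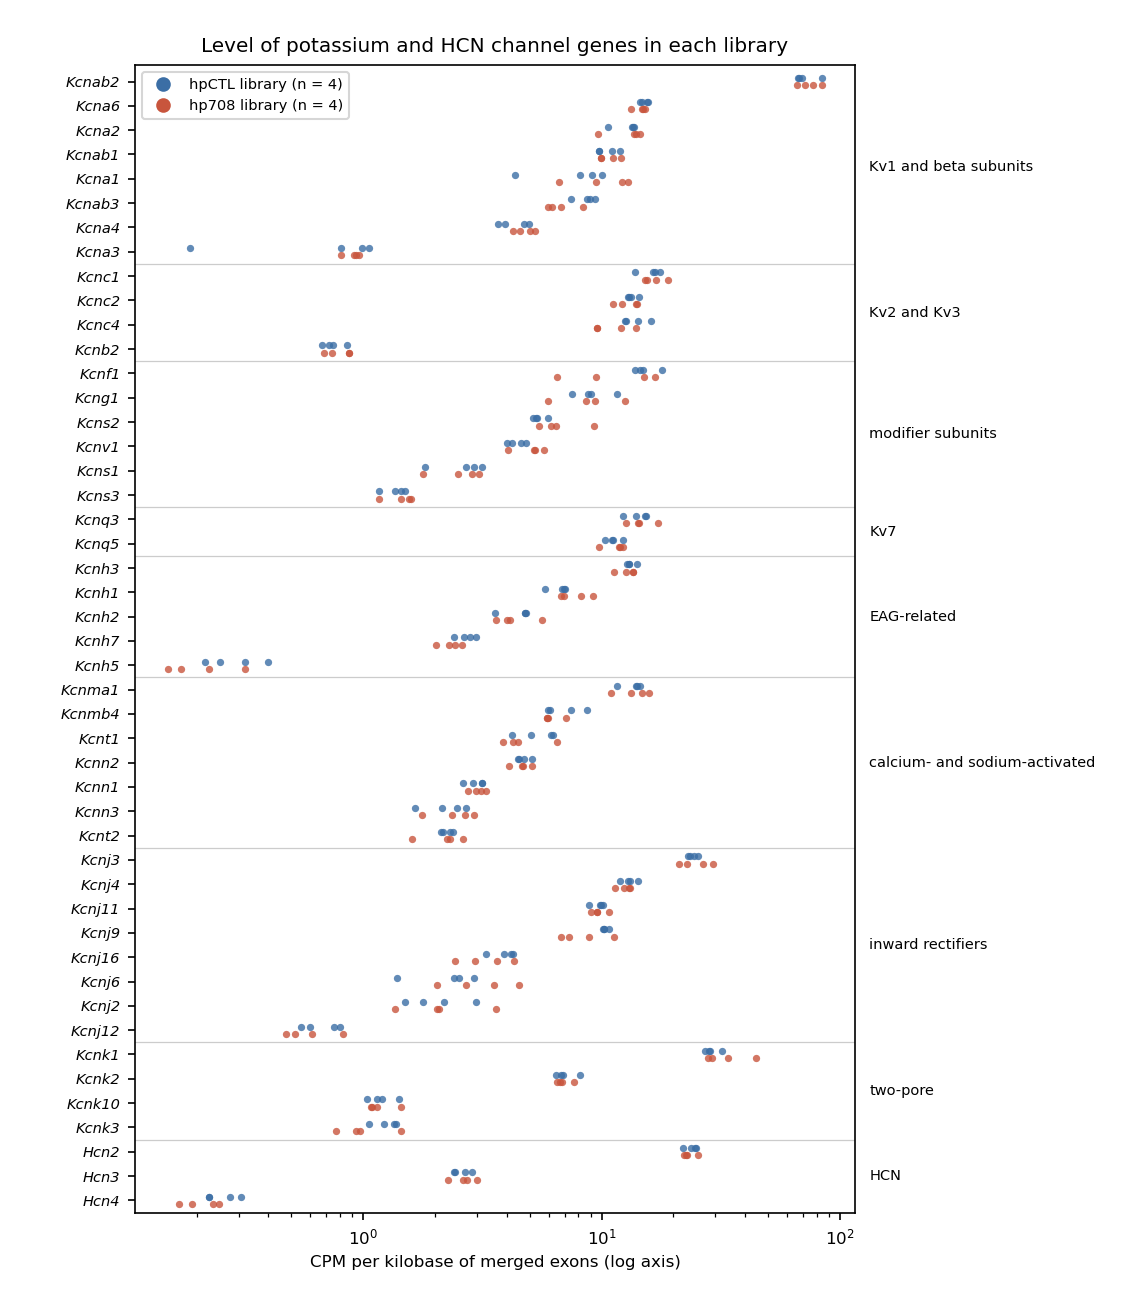
Level of the 47 genes in CPM per kilobase of merged exons (log axis), grouped by family, with a point for each of the 4 hpCTL (blue) and 4 hp708 (red) libraries. Kcnab2 lies highest, between 66.2 and 84.4, Hcn4 and Kcnh5 lie lowest, and for each gene the points of both groups overlap.

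Levels between genes were compared only per length, as CPM per kilobase of merged exons. The order was led by Kcnab2, a cytoplasmic beta subunit of Kv1 channels, at 73.4, followed by Kcnk1 (31.5), which encodes the tandem-pore leak subunit TWIK-1, Kcnj3 (24.6), the GIRK1 subunit of G protein-gated inward rectifiers, and Hcn2 (23.5). The ranges of Kcnj3 (21.1 to 29.4) and Hcn2 (21.9 to 25.5) overlapped, as did those of Kcnk1 (27.2 to 44.8) and Kcnj3, whereas Kcnab2 lay above the other 46 genes in each library. Genes 5 to 16 in the order, from Kcnc1 to Kcnab1, had means between 10.7 and 16.4. At the other end were Hcn4 (0.235), Kcnh5 (0.257), Kcnj12 (0.642), Kcnb2 (0.771) and Kcna3 (0.833).

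Among the Kv1 and beta subunits, 6 of 8 log2 fold changes were above 0, with a median of 0.06, and Kcna1 and Kcnab3 had an unadjusted p below 0.05 in opposite directions. Kcna1 (ENSMUSG00000047976) encodes a low-threshold Kv1 subunit of axons and terminals, and lies at chr6:126617360-126623347 of GRCm39. It had a CPM of 20.7, 38.7, 48.1 and 43.4 in hpCTL replicates 1 to 4 and 45.2, 31.7, 58.0 and 62.0 in hp708 replicates 1 to 4. Hp708 replicates 3 and 4 lay above all hpCTL libraries, hp708 replicates 1 and 2 lay within their range, and hpCTL replicate 1 was far below the other 7. The log2 fold change was 0.34 (standard error (SE) 0.06, unadjusted p = 7.26e-04, FDR 0.294 in edgeR). Without surrogate variables it was 0.38 with a SE of 0.27, and without hp708 replicate 1 it was 0.24 (FDR 0.327 from the same test). Leaving out hp708 replicate 4, its highest library, gave 0.22 (unadjusted p = 0.0649, edgeR).

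Kcnab3 (ENSMUSG00000018470) encodes another beta subunit of Kv1 channels. It had 30.8, 28.5, 24.4 and 29.5 CPM in hpCTL replicates 1 to 4 and 27.5, 19.5, 20.3 and 22.2 CPM in the hp708 replicates. Hp708 replicates 2 to 4 lay below all hpCTL libraries, and replicate 1 lay within the hpCTL range. The fitted log2 fold change was -0.26 (SE 0.09, unadjusted p = 0.0240, FDR 0.594 in edgeR). Kcnab3 was also the channel gene that kept an unadjusted p below 0.05 without surrogate variables, at -0.34 (unadjusted p = 0.0209, edgeR). With 3 surrogate variables its unadjusted p was 0.0641, 0.0696 and 0.0637 in edgeR without hpCTL replicate 2, hpCTL replicate 4 and hp708 replicate 3. Its antisense neighbour Kcnab3os, which covers 16% of its exon bases, had at most 0.217 CPM.

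The abundant beta subunit gene Kcnab2 (ENSMUSG00000028931) had 832, 686, 657 and 666 CPM in hpCTL and 705, 653, 760 and 826 CPM in hp708. The highest value was in hpCTL replicate 1 and the lowest in hp708 replicate 2, so the groups overlapped, and the log2 fold change was 0.09 (SE 0.07). Kcna2, which forms axonal channels together with Kcna1, had 143 to 184 CPM in hpCTL and 131 to 196 CPM in hp708 (log2 fold change 0.03). The ratio of Kcna1 to Kcna2 in CPM, chosen after the values were seen and given without a test, came to 0.145, 0.214, 0.263 and 0.235 in the hpCTL libraries and to 0.245, 0.242, 0.296 and 0.328 in hp708. Each hp708 library thus had a ratio above 3 of the 4 hpCTL libraries. Kcna3, which is also known from T cells and microglia, had 0.357 CPM in hpCTL replicate 1 and 1.53 to 2.01 CPM in the other 7 libraries. The T cell list was low in hpCTL replicate 1 (6.03 CPM summed over 4 genes) but also in hp708 replicates 1 and 3 (4.78 and 4.69 CPM), where Kcna3 had 1.74 and 1.83 CPM. Its part in the level of Kcna3 was not tested. Kcna6, Kcna4 and Kcnab1 had log2 fold changes of -0.05, 0.15 and 0.03, and 39.7% of the exon bases of Kcna6 are shared with Gm26673 on the other strand, which had 0.652 to 1.49 CPM.

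**Figure D2:**
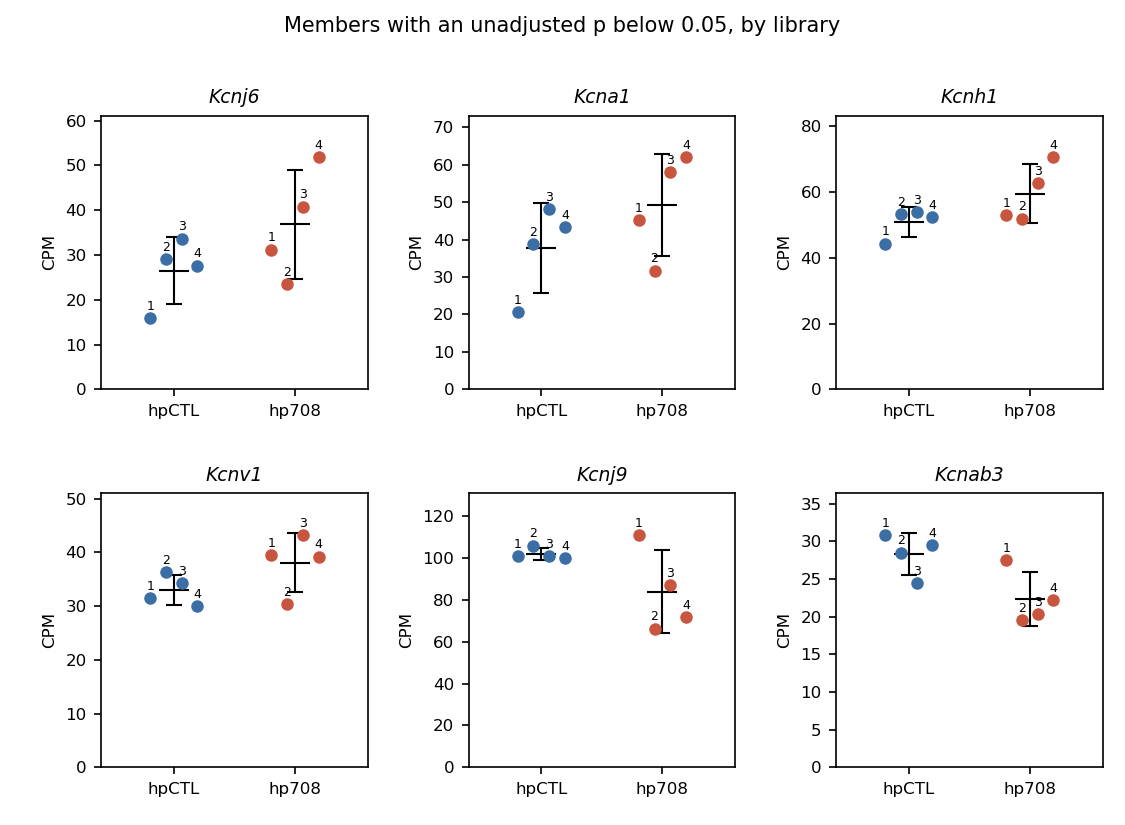
CPM of the 6 genes with an unadjusted p below 0.05, a numbered point per library, with the mean as a line and the SD as a bar (n = 4). In Kcnj6 and Kcna1 the lowest point is hpCTL replicate 1 and the 2 highest are hp708 replicates 3 and 4, while in Kcnj9 and Kcnab3 hp708 replicate 1 sits with hpCTL and hp708 replicates 2 to 4 lie below.

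The Kv2 and Kv3 genes held no gene with an unadjusted p below 0.05, with 2 log2 fold changes above 0, 2 below and a median of 0.01. Kv3 channels open and close fast and allow rapid firing, above all in interneurons. Kcnc1 (ENSMUSG00000058975), which carries the 8mer with the most paired bases, had 140, 179, 168 and 170 CPM in hpCTL and 172, 155, 193 and 158 CPM in hp708. Its groups overlapped, and its log2 fold change was 0.05 (SE 0.08). Kcnc4, another Kv3 gene, had 63.3, 64.1, 81.3 and 72.1 CPM in hpCTL and 70.6, 48.4, 61.0 and 48.2 CPM in hp708, with a log2 fold change of -0.25 (unadjusted p = 0.0519 in edgeR). Hp708 replicates 2 to 4 were its lowest libraries. Kcnc2 and the delayed rectifier gene Kcnb2 had log2 fold changes of -0.03 and 0.13. Kcnc2 had 110 to 122 CPM in hpCTL and 94.8 to 120 CPM in hp708. The 7 interneuron markers, headed by Gad1 and Gad2, summed to 679 to 806 CPM in hpCTL and 679 to 739 CPM in hp708. Of these 7, 2 had an unadjusted p below 0.05 in edgeR, Vip (log2 fold change -0.32) and Sst (-0.19). Pvalb and Lhx6 had -0.16 and -0.15, and Gad1 and Gad2, which make up most of the sum, had 0.03 each. Their part in the values of the Kv3 genes was not tested.

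Modifier subunits do not form channels on their own but join Kv2 subunits and alter their gating. Of these 6 genes 5 had a log2 fold change above 0, the median being 0.11, and 1, Kcnv1, had an unadjusted p below 0.05. Kcnv1 (ENSMUSG00000022342) had 31.5, 36.3, 34.3 and 30.0 CPM in hpCTL and 39.5, 30.3, 43.2 and 39.2 CPM in hp708. Hp708 replicates 1, 3 and 4 exceeded all hpCTL libraries, and hp708 replicate 2 was next to the lowest hpCTL library. The log2 fold change was 0.23 (SE 0.07, unadjusted p = 0.0117, FDR 0.522 in edgeR), against 0.11 without hp708 replicate 1 (unadjusted p = 0.114). In edgeR the unadjusted p was 0.0677 without hpCTL replicate 3 and 0.0590 without hp708 replicate 3.

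Kcns2 (ENSMUSG00000050963) had the third highest fold change of the list, with 39.2, 35.0, 33.9 and 34.6 CPM in hpCTL and 40.1, 35.7, 42.2 and 60.8 CPM in hp708. One value, that of hp708 replicate 4, stood well above the rest. The log2 fold change was 0.30 (SE 0.14, unadjusted p = 0.0607 in edgeR). Kcnf1 (ENSMUSG00000051726) varied most within hp708 among the genes of this family, with 66.0, 86.1, 71.4 and 69.6 CPM in hpCTL and 72.3, 45.6, 80.1 and 31.1 CPM in hp708. Its values in hp708 replicates 2 and 4 were the lowest of all libraries, and replicates 1 and 3 lay within the hpCTL range. For Kcnf1 the coefficient of variation was 12.1% in hpCTL and 39.9% in hp708, and the log2 fold change was -0.26 (SE 0.23, unadjusted p = 0.301, edgeR). Leaving out 1 library moved it from -0.10, without hp708 replicate 4, to -0.81, without hp708 replicate 1, and the filter of at least 10 counts in every library gave -0.75 (unadjusted p = 3.49e-04, edgeR). Kcng1, Kcns1 and Kcns3 had log2 fold changes of 0.04, 0.08 and 0.14.

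The Kv7 genes Kcnq3 and Kcnq5 encode subunits of the M-current, a slow current that muscarinic receptors suppress. Kcnq3 (ENSMUSG00000056258) had 181, 223, 205 and 225 CPM in hpCTL and 212, 187, 255 and 209 CPM in hp708, and Kcnq5 had 79.9 to 95 CPM in hpCTL and 75.4 to 94.7 CPM in hp708. Their log2 fold changes, 0.06 and 0.05, lay within the spread of the libraries.

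Of the 5 EAG-related genes, 2 had a log2 fold change above 0 and 3 below, with a median of -0.02. Kcnh1 (ENSMUSG00000058248), which encodes the delayed rectifier EAG1, had 44.3, 53.2, 53.9 and 52.3 CPM in hpCTL and 53.0, 51.9, 62.8 and 70.6 CPM in hp708. Hp708 replicates 3 and 4 were the highest libraries and hpCTL replicate 1 the lowest, the same libraries as in Kcna1 and Kcnj6. The log2 fold change was 0.18 (SE 0.05, unadjusted p = 0.0109, FDR 0.514 in edgeR) and 0.24 without hp708 replicate 1. It was 0.12 without hpCTL replicate 3 (unadjusted p = 0.119, edgeR) and 0.11 without hp708 replicate 4 (unadjusted p = 0.0686, edgeR). Kcnh5 (ENSMUSG00000034402), its close relative EAG2, was near the lower limit with 20 to 61 counts per library. Its values were 1.25, 1.84, 1.44 and 2.29 CPM in hpCTL and 1.30, 0.870, 1.83 and 0.991 CPM in hp708, and its log2 fold change, -0.37 (SE 0.27, unadjusted p = 0.206, edgeR), was the lowest of the list. Kcnh3 (ENSMUSG00000037579), the most abundant of the family at 13.0 CPM per kilobase, had 115, 106, 107 and 104 CPM in hpCTL and 111, 92.3, 103 and 111 CPM in hp708. Its groups overlapped (log2 fold change -0.02, SE 0.06). The ERG channel genes Kcnh2 and Kcnh7, whose channels close slowly after depolarisation, had log2 fold changes of 0.03 and -0.17. For Kcnh7 18.6% of the exon bases are shared with Gca on the other strand, which had 12.3 to 15.8 CPM.

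None of the 7 calcium- and sodium-activated genes had an unadjusted p below 0.05 in edgeR under 3 surrogate variables. Their log2 fold changes ran from -0.14 for Kcnt1 to 0.16 for Kcnn3, with a median of 0.01. Kcnma1 (ENSMUSG00000063142), the pore subunit of BK channels that shape spike repolarisation, had 197, 247, 236 and 240 CPM in hpCTL and 251, 186, 268 and 227 CPM in hp708. The lowest and the highest of these values were both in hp708, and the log2 fold change was 0.05 (SE 0.06). Kcnmb4, the neuronal BK beta subunit, had 35.6 to 51.8 CPM in hpCTL and 35.3 to 42.6 CPM in hp708 (log2 fold change -0.08). For the SK channel genes Kcnn1, Kcnn2 and Kcnn3, which give the medium afterhyperpolarisation, the log2 fold changes were 0.08, 0.01 and 0.16. Kcnt1 had 46.8, 69.4, 56.0 and 68.2 CPM in hpCTL and 72.3, 47.3, 49.3 and 42.7 CPM in hp708, hp708 replicate 1 being the highest library and replicate 4 the lowest. Kcnt2, the second sodium-activated gene, had a log2 fold change of -0.01.

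The inward rectifiers had the genes with the lowest p in each direction, Kcnj6 and Kcnj9, which encode the GIRK2 and GIRK3 subunits of the channels that G protein-coupled receptors open. Kcnj6 (ENSMUSG00000043301) lies on the minus strand at chr16:94545901-94798612 and holds one of the 8mers and a 7mer-A1 site. It had 15.9, 29.0, 33.6 and 27.6 CPM in hpCTL replicates 1 to 4 and 31.2, 23.5, 40.8 and 51.8 CPM in hp708 replicates 1 to 4. Hp708 replicates 3 and 4 were the highest libraries, hp708 replicates 1 and 2 were within the hpCTL range, and hpCTL replicate 1 was the lowest. The mean was 26.5 ± 7.52 CPM (SD, n = 4) in hpCTL and 36.8 ± 12.2 CPM (SD, n = 4) in hp708. Kcnj6 thus had the highest log2 fold change of the list, 0.38 (SE 0.06, unadjusted p = 3.47e-04, FDR 0.294 in edgeR), and it carries seed matches. Without surrogate variables the value was 0.47 with a SE of 0.27 (unadjusted p = 0.107, edgeR), and without hp708 replicate 1 it was 0.37 (FDR 0.0776). Without hp708 replicate 4, its highest library, it was 0.22 (unadjusted p = 0.0368, edgeR). Gm41505, which shares 12.5% of its exon bases on the other strand, had at most 0.217 CPM.

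Kcnj9 (ENSMUSG00000038026, chr1:172144668-172163568, minus strand) had 101, 106, 101 and 100 CPM in hpCTL, and 111, 66.3, 87.0 and 71.8 CPM in hp708. Its hpCTL libraries were close to each other, hp708 replicate 1 lay above all of them, and hp708 replicates 2 to 4 lay below. The coefficient of variation was 2.65% in hpCTL and 24.0% in hp708. Kcnj9 had a log2 fold change of -0.19 (SE 0.07, unadjusted p = 0.0208, FDR 0.576 in edgeR), with no seed match in its 3′UTR. The value was -0.15, -0.14 and -0.12 without hpCTL replicate 2, hpCTL replicate 3 and hp708 replicate 4, with an unadjusted p of 0.114, 0.181 and 0.148 in edgeR, and -0.29 without hpCTL replicate 4. Its exons share 14.8% of their bases with Igsf8 and Gm36937 on the other strand. Igsf8 had 162 to 230 CPM and a log2 fold change of -0.08 (unadjusted p = 0.178, edgeR), and the strand setting of the counting is not given in the sources used here.

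The ratio of Kcnj6 to Kcnj9 in CPM came to 0.158, 0.274, 0.333 and 0.276 in the hpCTL libraries and to 0.280, 0.355, 0.469 and 0.722 in hp708. Hp708 replicates 2 to 4 exceeded all hpCTL libraries, and replicate 1 was close to hpCTL replicates 2 and 4. This ratio was chosen after the values were seen and is given without a test. Kcnj3 (ENSMUSG00000026824), which encodes their partner GIRK1, had 131, 133, 144 and 139 CPM in hpCTL and 130, 120, 151 and 167 CPM in hp708 (log2 fold change 0.03, SE 0.06), the hp708 values lying on both sides of those of hpCTL. Among the strong inward rectifiers Kcnj2, Kcnj4 and Kcnj12 the log2 fold changes were -0.14, -0.04 and -0.14. Kcnj11, the pore subunit of ATP-sensitive channels, had a log2 fold change of 0.03. Kcnj16, whose product pairs with the glial subunit Kcnj10, had 18, 23.4, 21.3 and 22.9 CPM in hpCTL and 23.6, 20, 16.2 and 13.3 CPM in hp708, with a log2 fold change of -0.22 (unadjusted p = 0.0798, edgeR).

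Tandem-pore channels carry leak currents. Kcnk1 (ENSMUSG00000033998) had 81.3, 68.9, 71.4 and 72.2 CPM in hpCTL and 70.8, 86.3, 73.5 and 113 CPM in hp708. Hp708 replicates 2 and 4 exceeded all hpCTL libraries (log2 fold change 0.15, SE 0.13). Kcnk3, the acid-sensitive TASK-1, had 9.78, 12.5, 11.4 and 12.7 CPM in hpCTL and 13.4, 7.17, 8.99 and 8.63 CPM in hp708. Its hp708 replicates 2 to 4 lay below all hpCTL libraries and replicate 1 above them, and the log2 fold change was -0.22 (unadjusted p = 0.0722, edgeR). The mechanosensitive TREK genes Kcnk2 and Kcnk10 had log2 fold changes of -0.02 and 0.02.

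For the HCN genes 0 of 3 had an unadjusted p below 0.05 in edgeR. Hcn2 (ENSMUSG00000020331) had 87.9, 84.2, 77.9 and 88.3 CPM in hpCTL and 80.9, 80.0, 78.7 and 90.5 CPM in hp708, the narrowest range of the 47 genes, with the highest value 1.16 times the lowest. Its log2 fold change was -0.04 (SE 0.07). Hcn3 had 11.2 to 14.8 CPM over the 8 libraries (log2 fold change 0.06), and Hcn4, with 26 to 47 counts per library, had 1.5 to 2.06 CPM in hpCTL and 1.13 to 1.66 CPM in hp708 (log2 fold change -0.25, SE 0.21). Of the exon bases of Hcn3, 25% are shared with Pklr, which had at most 0.15 CPM.

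**Figure D3:**
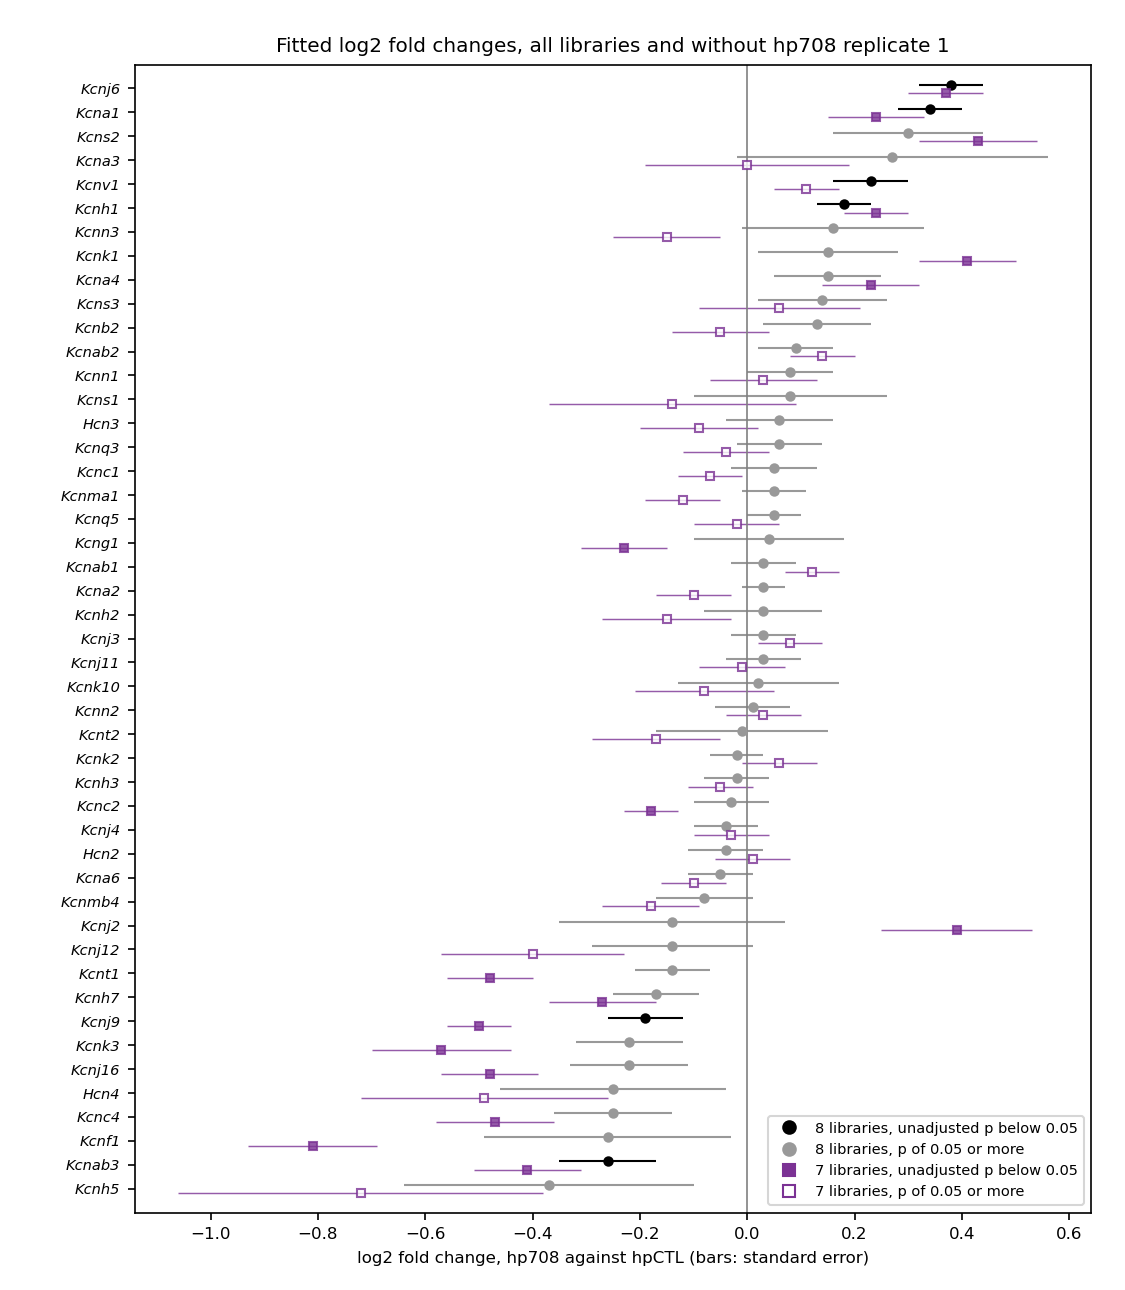
Fitted log2 fold change of the 47 genes, hp708 against hpCTL, with SEs, from all 8 libraries (circles) and without hp708 replicate 1 (squares), in the order of the first. With all libraries the values run from -0.37 to 0.38, and without that library most of the lower genes move further below 0, Kcnf1 to -0.81.

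Leaving out hp708 replicate 1, the library with conflicting labels, moved the count of lower genes from 2 to 10 and that of higher genes from 4 to 7. Without it, 1 of the 47 genes passed an FDR of 0.05 (0.321% of all genes did), 7 were higher at an unadjusted p below 0.05 (5.44% of all genes) and 10 were lower (6.72% of all genes), and the median log2 fold change was -0.07. The gene that passed was Kcnj9, with 102 ± 2.7 CPM in hpCTL and 75.0 ± 10.7 CPM in hp708 replicates 2 to 4 (means and SDs). Its log2 fold change was -0.50 (SE 0.06, FDR 0.0276 in edgeR). Without surrogate variables the value was -0.44, and the FDR of that fit was 0.998. Of the 6 genes with an unadjusted p below 0.05 in the fit of all libraries, 5 also had one here, all but Kcnv1. Without surrogate variables 3 genes were higher and 7 were lower at that p, where 1.37% of all genes were higher and 2.05% lower. The median log2 fold change of the 47 genes was -0.01 in that fit.

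The 10 lower genes were Kcnj9, Kcnf1 (-0.81, FDR 0.0558 in edgeR), Kcnt1 (-0.48), Kcnj16 (-0.48), Kcnk3 (-0.57), Kcnc4 (-0.47), Kcnab3 (-0.41), Kcnc2 (-0.18), Kcng1 (-0.23) and Kcnh7 (-0.27). They encode subunits of 7 families, from G protein-gated and leak channels to fast Kv3 channels. For 4 of them, Kcnj9, Kcnk3, Kcnc4 and Kcnab3, hp708 replicates 2 to 4 all lay below the 4 hpCTL libraries, while 3.12% of all tested genes did so. For 8 of the 10, hp708 replicate 1 was the highest hp708 library, and for 4 it was above all hpCTL libraries. As these genes were picked by leaving that library out, its place among them is a description. The 7 higher genes were Kcnj6 (0.37), Kcns2 (0.43), Kcnk1 (0.41), Kcnj2 (0.39), Kcna1 (0.24), Kcnh1 (0.24) and Kcna4 (0.23). Of these Kcnj2, the strong inward rectifier Kir2.1, had -0.14 with all libraries, with 7.47 CPM in hp708 replicate 1, 11.2 to 19.7 CPM in the other hp708 libraries and 8.22 to 16.2 CPM in hpCTL. Seed matches were found in 4 of the 10 lower genes (Kcnc2, Kcnf1, Kcnh7 and Kcnk3) and in 3 of the 7 higher ones (Kcnj2, Kcnj6 and Kcns2).

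**Figure D4:**
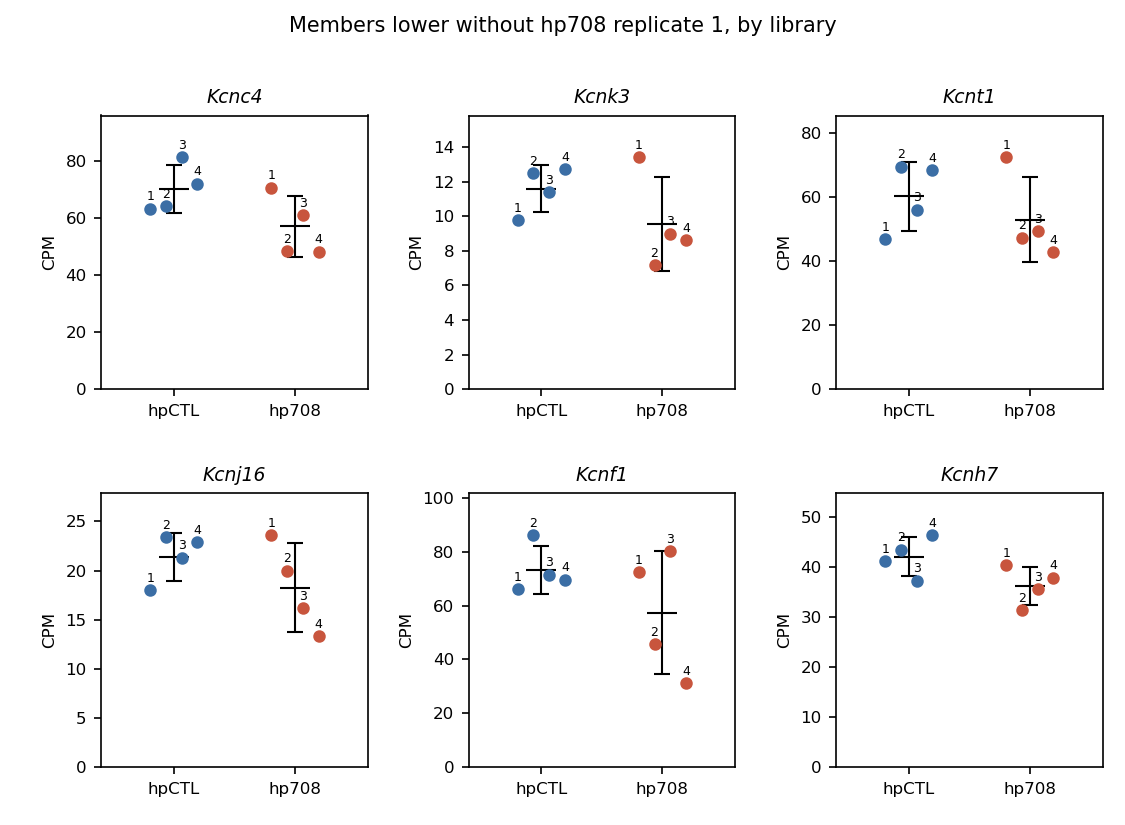
CPM of 6 of the 10 genes that were lower without hp708 replicate 1, a numbered point per library, with the mean as a line and the SD as a bar (n = 4). In Kcnc4 and Kcnk3 hp708 replicates 2 to 4 lie below all hpCTL points, in Kcnf1 replicate 3 does not, and replicate 1 lies within or above the hpCTL points in each panel.

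Markers of the subiculum, the region next to CA1, were lower in hp708 replicates 2 to 4 than in hp708 replicate 1. Their sum was as low in hpCTL replicate 1. Their mean log2 CPM there lay above that of hp708 replicates 2 to 4 and below that of the other libraries. The mean log2 CPM of the 4 tested subiculum markers stood at 4.16, 4.76, 4.65 and 4.98 in the hpCTL libraries, and at 4.73, 3.91, 3.5 and 3.37 in hp708. Summed, the list had 107, 173, 160 and 207 CPM in hpCTL replicates 1 to 4. It had 179 CPM in hp708 replicate 1 and 99.2 to 113 CPM in hp708 replicates 2 to 4. Of the 4 markers tested, 3 had an unadjusted p below 0.05, with log2 fold changes of -1.12 for Nts, -0.75 for Slc17a6 and -0.73 for Tshz2, and Teddm3 was near 0 in each library. CA3 markers were on average 0.25 higher in hp708 on the log2 scale, with 135 to 188 CPM in hpCTL and 157 to 205 CPM in hp708, and 3 of the 5 had an unadjusted p below 0.05 in edgeR. CA2 markers differed by 0.22 on that scale (1 of 4 with such a p) and those of CA1 by -0.07 (0 of 5). Of the 5 microglia markers 3 had such a p, C1qa (-0.53), Tmem119 (-0.28) and Csf1r (-0.23), and their sum was 443 to 616 CPM in hpCTL and 378 to 653 CPM in hp708. For the T cell list it was 2 of 4, Cd3e (-0.69) and Cd8a (-1.30). The 6 interferon response genes all had an unadjusted p below 0.05 in edgeR. Their log2 fold changes were all below 0, from -0.74 for Irf7 to -0.52 for Ifit1. They summed to 147 to 381 CPM in hpCTL and 137 to 339 CPM in hp708, the low values being those of hpCTL replicate 1 and hp708 replicates 1 and 3. Of all tested genes 7.70% had such a p in either direction. The part of these differences in the values of the channel genes was not tested.

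**Figure D5:**
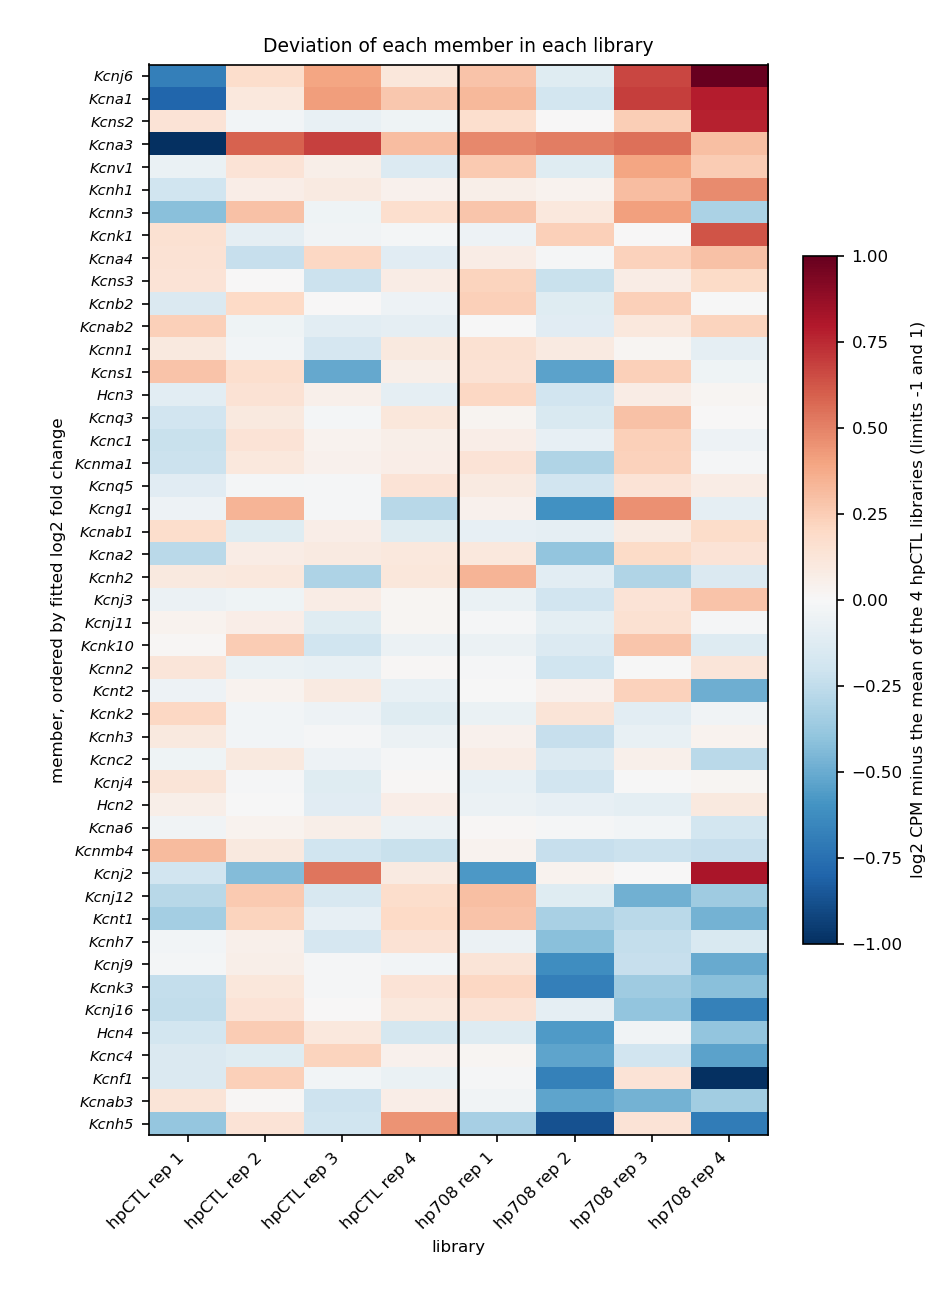
Log2 CPM of each gene in each library minus the mean of the 4 hpCTL libraries, with genes ordered by fitted fold change. Blue cells gather at the bottom right in hp708 replicates 2 and 4, the column of hp708 replicate 2 is mostly blue, and Kcna3, Kcna1 and Kcnj6 are blue in hpCTL replicate 1.

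The libraries of a group differed among themselves. The median deviation of the 47 genes from the hpCTL mean was -0.140 in hp708 replicate 2, where 9 of the genes were above that mean, and between -0.054 and 0.082 in the other 7 libraries. The highest value of a gene lay in hp708 replicate 3 for 11 genes, in replicate 4 for 10 and in replicate 1 for 9. The coefficient of variation was larger in hp708 than in hpCTL for 36 of the 47 genes (76.6%), against 56.4% of all tested genes, and it exceeded 20% in hp708 for 16 and in hpCTL for 7 of the genes.

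Genes with a seed match lay on both sides of 0. Of the 15 genes with a match, 9 had a log2 fold change above 0 and 6 below, with a median of 0.05, where the 32 genes without one had a median of 0.03. Over all tested genes with a 3′UTR the medians were 0.00 with and -0.01 without a match. Among the 6 genes with an unadjusted p below 0.05, the only one with a match was Kcnj6.

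The other potassium and HCN channel genes of the annotation, without the A-type genes, numbered 44, of which 32 were tested. Of these, 3 had an unadjusted p below 0.05 in edgeR, 1 higher (3.12%, against 2.82% of all tested genes) and 2 lower (6.25%, against 4.87%). The median log2 fold change of the 32 genes was 0.04. Of the lower genes, Kcna5 (-0.63) had 1.40 to 1.68 CPM in hpCTL and 0.78 to 1.09 CPM in hp708, and Kcnh8 (-0.98) had 0.48 to 0.68 CPM in hpCTL and 0.13 to 0.48 CPM in hp708. Both were low and their groups did not overlap, in Kcnh8 by less than the rounding of these values. Of all tested genes, 1.51% had groups that did not overlap. Without hp708 replicate 1, 2 of the 32 genes were higher and 5 lower at that unadjusted p, where 5.44% of all genes were higher and 6.72% lower. With all libraries, 6 of 35 tested sodium and calcium channel genes were higher (17.1%) and 1 was lower (2.86%). Their median was 0.09 on the log2 scale. Of the 9 genes of the A-type complex 0 were higher and 1 was lower (11.1%), with a median of 0.02. Of all tested genes 2.82% were higher and 4.87% lower. Differences between these lists were not tested.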

How the data were processed

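Raw counts per gene from 8 hippocampal polyA libraries (TruSeq mRNA) were deposited by the authors, who mapped reads to GRCm39 with STAR 2.7.8a and counted them with featureCounts 1.6.4 on GENCODE M26, per the methods and the submitters' processing notes. Strand and multi-mapping settings are not given in the sources used here. Gene symbols, positions and 3′UTRs came from GENCODE M39 of the same build, which named 39641 of 40659 identifiers. Groups followed the sample labels. Replicates are separate mice.

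Counts were filtered with filterByExpr (17252 genes, among them the 47 channel genes), scaled by TMM and compared between groups by the quasi-likelihood test of edgeR 4.0.16 (R 4.3.3) in its edgeR 3 form. The fit held 3 surrogate variables estimated by svaseq of sva 3.50.0, which left 3 residual degrees of freedom, and p-values were adjusted by Benjamini-Hochberg over all tested genes. Standard errors were derived from the fold change and the test statistic. CPM used TMM-scaled library sizes, and log2 CPM a prior count of 2. The code was tested on simulated counts. Alternatives changed the surrogate variables, the test, DESeq2 1.42.0, the size factors, the filter, the replicate block and the libraries. Within groups, pairs of libraries differed by a chi-square of 10.0 to 46.2 per degree of freedom (genes with at least 20 counts), so none was a copy.

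Values in each library are given for genes with an unadjusted p below 0.05, the 3 highest and 3 lowest fold changes and the most abundant gene per family, 17 in all. Kcna2, Kcna3, Kcnc4, Kcnh7, Kcnj2, Kcnj16, Kcnk3, Kcnq5, Kcnt1 and other genes given with values were chosen once their values were known. The genes, families and lists were chosen with earlier results of these data known. The values of 1 gene outside the list of 47 are not reported here.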

Additional observations from a re-analysis of the deposited data

Results flagged for a closer look

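The CPM of each of the 47 genes was examined in hpCTL and in hp708, which made 94 groups of 4 libraries. In 6 of them 1 library was far from the other 3 relative to the range of the group, and chance flags about 1 in 20 groups (5%). Of the 6, 3 concerned hpCTL replicate 1. Kcna2 had 143 CPM there against 181 to 184 in the other hpCTL libraries, Kcnh1 44.3 against 52.3 to 53.9, and Kcnab2 832 against 657 to 686. Kcnh2 had 18.6 CPM in hpCTL replicate 3 against 24.7 to 24.9. Kcnj9 had 106 CPM in hpCTL replicate 2 against 100 to 101. Kcnmb4 had 42.6 CPM in hp708 replicate 1, the library with conflicting labels, against 35.3 to 35.8 in the other hp708 libraries.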

How the results depend on the processing

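Where a value changed, the cause was not tested. The count of 4 higher genes at an unadjusted p below 0.05 became 0 with no or 1 surrogate variable, 2 with 2 surrogate variables and 2 with at least 10 counts in every library, while the share of all genes went from 2.82% to 0.858%, 0.922%, 1.12% and 2.47%. The count of 2 lower genes became 1 with no surrogate variables and 6 with at least 10 counts in every library (4.87% of all genes became 0.951% and 3.25%). The count of 0 genes at an FDR below 0.05 became 2 in the likelihood ratio test, and 2 in DESeq2, both times Kcnj6 and Kcna1 (0.736% and 0.556% of all genes). The 3 other potassium and HCN channel genes became 1 with no surrogate variables, with 1 and with DESeq2. Size factors of the DESeq2 type and no filter left each of these counts within 1.5 times. With at least 10 counts in every library the log2 fold changes of Kcnc1 (-0.07), Kcnq3 (-0.06), Kcnma1 (-0.09) and Hcn2 (0.01) changed sign.

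The labels name no pairs of mice. Same-numbered libraries correlated between -0.04 and 0.02, which cannot exclude a pairing. The replicate block was fitted without surrogate variables, because both together leave no residual degrees of freedom. It gave 1 higher, 2 lower and 0 genes at an FDR below 0.05, and 1 other potassium or HCN channel gene. Of all tested genes, 0.614% were higher and 0.962% lower in that fit, and 0.00580% passed that FDR.

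Leaving out 1 library, with or without surrogate variables, gave 0 to 7 higher genes, 0 to 10 lower genes, 0 to 1 at an FDR below 0.05, 0 to 4 whose groups did not overlap (1, 2, 4 and 2 without hpCTL replicate 1, hpCTL replicate 3, hp708 replicate 1 and hp708 replicate 2, where 3.40%, 3.52%, 4.92% and 6.17% of all genes did not), 1 to 7 other potassium or HCN channel genes, and a median log2 fold change of -0.07 to 0.06. In these fits 0.721% to 5.44% of all genes were higher, 0.652% to 6.72% were lower, and 0% to 0.321% passed that FDR. Fold changes near 0 changed sign with 3 surrogate variables, or without them, in Kcnc1 (-0.07 to 0.11, or -0.02 to 0.09), Kcnq3 (-0.04 to 0.12, or -0.04 to 0.11), Kcnma1 (-0.12 to 0.11, or -0.05 to 0.11) and Kcnj3 (-0.02 to 0.10, or -0.03 to 0.12). They did so only with them in Kcnh3 (-0.05 to 0.04, and -0.08 at the lowest without) and Hcn2 (-0.09 to 0.02), and only without them in Kcnab2 (-0.01 to 0.14, and up to 0.16 with). Over the 17 genes named by rule, 243 of 272 such values kept their sign, and 149 of 153 did so under the other alternatives. Of the 6 genes called, 1 was still called with no surrogate variables, and 2 with 1, with 2, under the replicate block and with at least 10 counts in every library. Kcna3, Kcnh5 and Hcn4, which had few counts, carried standard errors of 0.29, 0.27 and 0.21. Their log2 fold changes of 0.27, -0.37 and -0.25 had an unadjusted p of 0.384, 0.206 and 0.261 in edgeR. Differences of the size of a standard error were thus not detectable. Kcnf1, with 753 to 1996 counts per library, had a standard error of 0.23.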

Other observations

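Outside the 47 genes, 2 channel genes known from the epithelium of the choroid plexus, Kcnj13 and Kcne2, spanned the widest ranges among the other potassium channel genes, and were chosen once those values were known. Kcnj13 had 0.25, 17.5, 1.6 and 20.9 CPM in hpCTL and 25.4, 25.5, 1.11 and 0.62 CPM in hp708. Kcne2 had 0.61, 9.14, 1.11 and 13.0 CPM in hpCTL and 15.3, 30.5, 0.68 and 0.66 CPM in hp708. The 5 choroid plexus markers summed to 51.7, 1616, 146 and 2037 CPM in hpCTL and 2967, 4365, 103 and 173 CPM in hp708, high and low in the same libraries of each group.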
